A study of Rattus norvegicus with 12 samples.

Results

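The 10 genes described here encode neuropeptides of the dorsal root ganglion, the cluster of sensory nerve cell bodies beside the spinal cord. They were named as a list, after earlier results of these data were known, so their direction is no independent evidence: Tac1, Calca, Calcb, Nppb and Sst as peptides that intact pain-sensing neurons (nociceptors) make, Gal, Npy, Vip and Adcyap1 as peptides known to rise after nerve injury, and Crh. All 10 were measured, by 12 of the 12783 probe sets that carried 1 gene symbol, and they stand among 10411 genes in all. Calca had 3 probe sets and each of the others had 1, so Calca is given by the brightest of its 3, judged on the mean of the 12 arrays.

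The arrays, Affymetrix expression arrays, measured total RNA from L4 and L5 ganglia of adult male Sprague Dawley rats weighing 180 to 300 g. The animals came from a High Pain (HP) and a Low Pain (LP) genetic sub-line. In each line 1 group had spinal nerve ligation (SNL) of L4 and L5, a tight tie that injures the axons leaving these ganglia, and the ganglia were taken at 3 days. The other group had sham surgery without nerve damage, which makes 4 groups (HP sham, HP SNL, LP sham, LP SNL) of 3 arrays each. The labels do not say whether the replicates of a group are separate animals, so each p-value speaks for the spread among these samples alone, and that spread may be technical.

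A nociceptor makes its peptides as long precursors, cuts them in the secretory granule, carries them down the axon and releases them in the dorsal horn and in the skin. Substance P (from Tac1) and the calcitonin gene-related peptides (from Calca and Calcb) excite spinal neurons and dilate blood vessels, natriuretic peptide B (Nppb) and somatostatin (Sst) mark a class of itch-sensing neurons, and somatostatin mostly inhibits. After the axon is cut, rodent sensory neurons are known to lower such peptides and to start making galanin, neuropeptide Y, vasoactive intestinal peptide and PACAP (from Adcyap1).

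Sequences around transcription starts are shown because members of both classes are known targets of the cyclic-AMP response element (CRE), the binding letters of the factor CREB. RefSeq promoter windows of the rat assembly GRCr8, 300 bases from 250 before to 50 after the start of transcription, were found for 8 of the 10 genes. The start is the 1 listed in that table, and for 5 of the 8 (Adcyap1, Calca, Nppb, Tac1 and Vip) it lies inside the gene span printed here rather than at its edge, in Adcyap1 far inside. The motif counts therefore describe these windows, not the sequence before the gene span, and only the windows of Gal, Npy and Sst begin at its edge. The full element TGACGTCA, searched on both strands, was in 1 of these 8 (Sst) and in 1.91% of 27456 rat promoter windows. Its shorter core TGACG, a search that also finds the full element, was in 5 of 8 (Calca, Gal, Sst, Tac1 and Vip) and in 22% of all windows. Neither TGANTCA, the letters of AP-1, nor TTCNNNGAA, those of STAT factors, was in any of the 8, against 7.33% and 8.68% of all windows. A match describes letters only, and no match says only that these letters are not in this window. The matches of 4 genes are printed here in 30 bases each, with the match in capitals. That of Tac1 reads on the other strand (CGTCA).
Tac1: tccctaaaattgCGTCAtttcgaacccaat
Calca: gaagcaccgaggTGACGcaatctgtctggg
Sst: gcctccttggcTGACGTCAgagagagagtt
Vip: ggatcaccactgTGACGtctttcgaggagc
Counted from the start of transcription in that table, the capitals lie at -206 to -202 in Tac1 (printed stretch chr4:36645365-36645394, plus strand), at -112 to -108 in Calca (chr1:178317624-178317653, minus strand), at +3 to +10 in Sst (chr11:90461537-90461566, plus strand) and at -97 to -93 in Vip (chr1:44470371-44470400, plus strand). The stretches of Tac1 and Vip lie inside the printed gene spans, that of Calca outside.

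Gal and Npy, whose signals rose in both lines, are shown with the 250 bases before their starts, at chr1:210084573-210084822 (minus strand) and chr4:80211861-80212110 (plus strand). Gal holds the core TGACG at -63 to -59, in capitals, and Npy holds none of the 4 motifs.
Gal: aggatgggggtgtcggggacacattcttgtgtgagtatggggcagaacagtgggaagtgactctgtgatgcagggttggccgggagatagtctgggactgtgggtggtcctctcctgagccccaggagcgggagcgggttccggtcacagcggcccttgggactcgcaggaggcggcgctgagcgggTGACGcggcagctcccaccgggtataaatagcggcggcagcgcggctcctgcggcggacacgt
Npy: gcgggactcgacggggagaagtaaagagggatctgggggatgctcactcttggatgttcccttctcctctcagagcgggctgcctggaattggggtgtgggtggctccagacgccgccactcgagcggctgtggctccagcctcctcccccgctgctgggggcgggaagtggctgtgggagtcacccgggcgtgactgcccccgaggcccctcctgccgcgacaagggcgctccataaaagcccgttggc

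The peptides of intact nociceptors were lower after ligation. In HP 3 of the 5 fell (Tac1, Calca and Calcb), beside 6.61% of all genes called lower, and in LP all 5 fell, beside 6.79%. A call is an adjusted p under 0.05 in limma, with Benjamini-Hochberg adjustment over all genes. The median log2 difference of the 5 was -1.02 in HP and -1.46 in LP, against -0.0008 and 0.0226 over all genes. In a bulk ganglion fewer cells of a type and less RNA per cell cannot be told apart. Differences are on the log2(signal + 1) scale, which understates the change of dim genes.

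Tac1 (chr4:36645344-36653548 in GRCr8, as for all gene positions here), the precursor of substance P, had signals of 1838.5, 2079.6 and 1763.0 on the HP sham arrays and 866.3, 797.5 and 682.8 on the HP SNL arrays. In LP the signals were 1778.3, 2449.8 and 2423.7 after sham and 768.7, 633.6 and 642.7 after SNL. Every ligated array lay below every sham array in both lines, and the 2 ligated groups overlapped each other. The group means were 1893.7 ± 165.4 (SD, n = 3) and 782.2 ± 92.7 in HP, and 2217.3 ± 380.4 and 681.7 ± 75.5 in LP. Tac1 fell 2.42-fold in HP (log2 difference -1.28 ± 0.15 SE, adjusted p = 0.000657) and 3.23-fold in LP (-1.69 ± 0.15, adjusted p = 0.00013).

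Calca (chr1:178312636-178317588) encodes alpha calcitonin gene-related peptide and, by alternative splicing, calcitonin. Its brightest probe set read 6338.2, 6666.7 and 6220.2 after sham and 5196.8, 4641.5 and 4698.1 after SNL in HP. In LP it read 5572.3, 6116.2 and 5569.2 after sham and 3829.6, 3357.7 and 3332.7 after SNL. None of the 4 groups overlapped another, in the order LP SNL, HP SNL, LP sham, HP sham from low to high. Calca fell 1.32-fold in HP (-0.40 ± 0.09, adjusted p = 0.0174) and 1.64-fold in LP (-0.72 ± 0.09, adjusted p = 0.000806).

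The smaller HP difference of Calca was near the threshold. Its adjusted p was 0.0545 without HP sham replicate 1, 0.0586 without HP sham replicate 2, 0.0621 without HP SNL replicate 2, 0.0611 without HP SNL replicate 3, 0.0522 with the 6 HP arrays alone and 0.0555 with the actin 3' to 5' ratio of each array, a sign of RNA length, as a covariate. Tested as separate probe sets, a second Calca probe set fell in HP (-0.80 ± 0.12, adjusted p = 0.00322) and in LP (-1.07 ± 0.12, adjusted p = 0.000549). The third read 40.7 to 96.1 on all arrays, with differences of 0.34 ± 0.35 in HP and -0.25 ± 0.35 in LP that did not pass the test (adjusted p = 0.612 and 0.735). With the mean of the 3 as the gene's value, the HP difference was -0.29 (adjusted p = 0.213).

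Calcb (chr1:178399634-178404654), which encodes the beta form of the same peptide, read 1385.8, 1666.9 and 1526.0 after sham and 960.9, 634.8 and 688.6 after SNL in HP. In LP the arrays read 1309.1, 1634.2 and 1668.2 after sham and 505.9, 570.1 and 586.8 after SNL. The ligated arrays were the lower ones in both lines with no overlap, and the 2 sham groups overlapped. Calcb fell 2.03-fold in HP (-1.02 ± 0.16, adjusted p = 0.00319) and 2.76-fold in LP (-1.46 ± 0.16, adjusted p = 0.000365). The calls of Tac1 and Calcb held in both lines under all 22 alternative settings.

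Nppb (chr5:163699955-163701314), the peptide that itch-sensing neurons pass to the spinal cord, was the most scattered member. In HP it read 236.4, 194.4 and 438.2 after sham and 88.8, 115.5 and 143.8 after SNL. In LP it read 395.2, 334.4 and 468.8 after sham and 152.5, 25.6 and 41.4 after SNL, where replicate 1 stood above the other 2 ligated arrays. The ligated arrays lay below the sham arrays in each line. The LP SNL signals were dim, at the 7.6 to 29.8 percentile, and the LP group means were 399.5 after sham and 73.2 after SNL. The difference was -2.83 ± 0.55 in LP (7.12-fold, adjusted p = 0.00738) and passed the test. Without LP SNL replicate 1 it was -3.56, with a pseudocount of 32 it was -2.22, and the adjusted p was up to 0.05 (with the 6 LP arrays alone, still called) over the alternatives. In HP it was -1.25 ± 0.55 (2.38-fold) and did not pass (adjusted p = 0.182, 95% interval -2.48 to -0.02). Without LP SNL replicate 1, which takes part in the HP test only through the pooled spread, the HP adjusted p was 0.0361.

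Sst (chr11:90461546-90462823), the somatostatin precursor, read 625.5, 655.9 and 476.7 after sham and 511.3, 218.6 and 367.5 after SNL in HP, where HP SNL replicate 1 lay above the lowest sham array. In LP it read 716.8, 710.3 and 782.4 after sham and 337.7, 313.9 and 313.1 after SNL, with a clear gap between the groups. Sst fell 2.29-fold in LP (-1.19 ± 0.25, adjusted p = 0.0108). The HP difference of -0.75 ± 0.25 did not pass the test (adjusted p = 0.0842, 95% interval -1.31 to -0.18). Without HP SNL replicate 1 it was -1.03 with an adjusted p of 0.0168, and the adjusted p was 0.0451 without the dimmest 25% of genes and 0.045 with trended and robust variance.

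**Figure D1:**
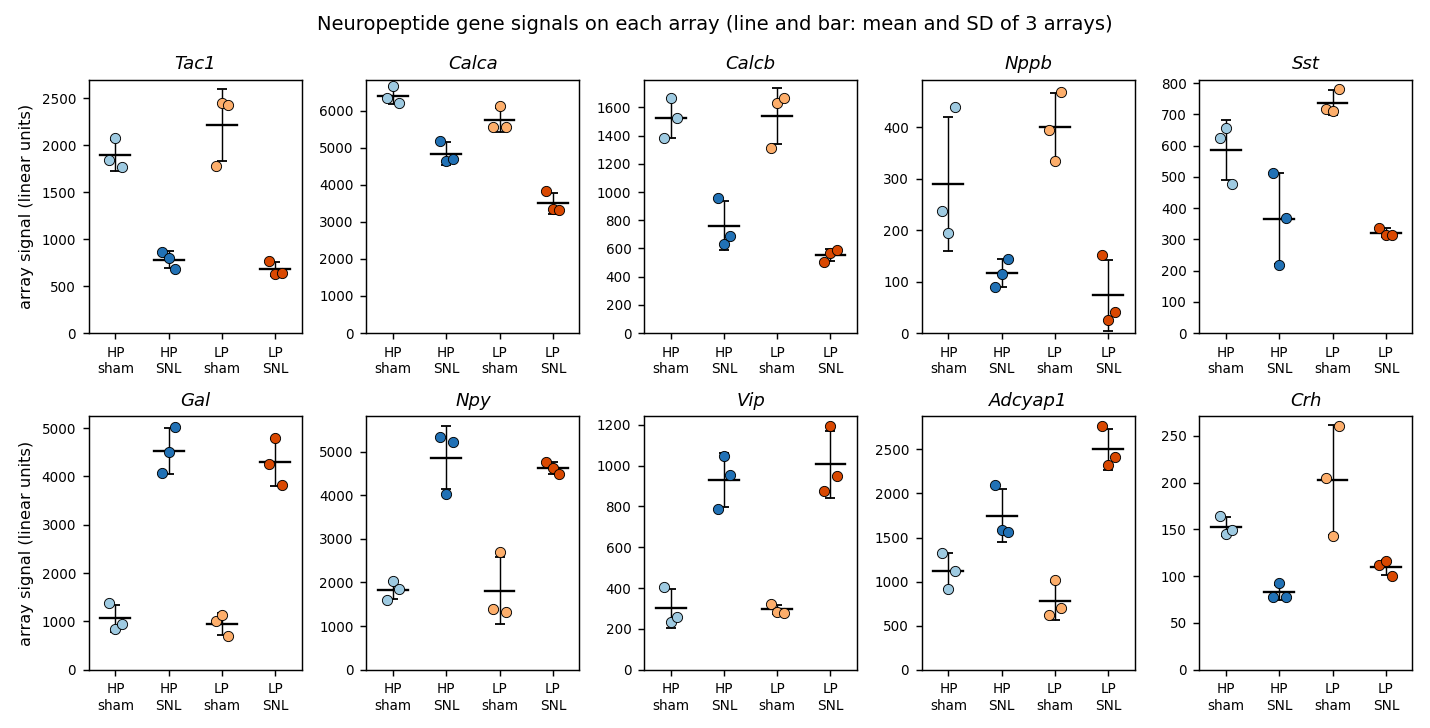
Array signal (linear units, each panel on its own axis from 0) of the 10 neuropeptide genes on each of the 12 arrays, by line and surgery, where points are arrays and lines with bars are the mean and SD of 3 arrays. The 5 intact-nociceptor peptides and Crh are lower after SNL, Gal, Npy, Vip and Adcyap1 are higher, and only Sst in HP has ligated and sham arrays that overlap.

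The injury peptides were higher after ligation. In HP 3 of the 4 rose (Gal, Npy and Vip), beside 7.02% of all genes called higher, and in LP all 4 rose, beside 7.66%. The median log2 difference of the 4 was 1.53 in HP and 1.73 in LP.

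Gal (chr1:210079709-210084572), the galanin precursor, read 1380.1, 847.6 and 956.1 after sham and 4063.4, 4498.0 and 5026.7 after SNL in HP. In LP it read 1014.3, 1126.7 and 693.9 after sham and 4248.5, 4792.5 and 3830.6 after SNL. The sham groups overlapped each other, the ligated groups overlapped each other, and the lowest ligated array was far above the highest sham array. Gal rose 4.34-fold in HP (2.12 ± 0.22, adjusted p = 0.000377) and 4.61-fold in LP (2.21 ± 0.22, adjusted p = 0.000182).

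Npy (chr4:80212111-80219310), the neuropeptide Y precursor, read 1606.3, 2028.7 and 1842.6 after sham and 5335.0, 4025.4 and 5210.7 after SNL in HP. The LP signals were 1403.1, 2707.2 and 1332.4 after sham, where replicate 2 was the highest sham array of either line, and 4767.0, 4616.4 and 4489.0 after SNL. No ligated array reached down to a sham array. Npy rose 2.65-fold in HP (1.41 ± 0.24, adjusted p = 0.00449) and 2.69-fold in LP (1.43 ± 0.24, adjusted p = 0.00357).

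Vip (chr1:44470232-44478561), the vasoactive intestinal peptide precursor, read 406.7, 233.7 and 259.3 after sham and 786.3, 1044.3 and 954.4 after SNL in HP. The LP arrays read 321.2, 284.6 and 279.5 after sham and 877.6, 1191.2 and 950.3 after SNL. As for Gal and Npy, the lines overlapped within each kind of surgery and the surgeries did not overlap. Vip rose 3.16-fold in HP (1.66 ± 0.21, adjusted p = 0.000839) and 3.38-fold in LP (1.76 ± 0.21, adjusted p = 0.00049). The calls of Gal, Npy and Vip held in both lines under all 22 alternatives.

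Adcyap1 (chr9:120550236-120569096), the precursor of PACAP, had a less even pattern between the lines. In HP it read 1321.7, 918.9 and 1118.6 after sham and 2097.1, 1585.2 and 1564.0 after SNL. The LP arrays gave 618.5, 1021.6 and 698.2 after sham and 2764.2, 2322.3 and 2416.5 after SNL. LP thus held both the lowest sham array and the highest ligated arrays, and the order of the groups was LP sham, HP sham, HP SNL, LP SNL, with an overlap only between the sham groups. Adcyap1 rose 3.27-fold in LP (1.71 ± 0.21, adjusted p = 0.000543). In HP the difference was 1.56-fold (0.64 ± 0.21, 95% interval 0.19 to 1.10) and did not pass the test (adjusted p = 0.069). It passed without LP sham replicate 2 (adjusted p = 0.0358), without the dimmest 25% of genes (0.0362) and with trended and robust variance (0.0298).

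Crh (chr2:104059184-104061048) encodes corticotropin-releasing hormone, the hypothalamic stress peptide. It was dim on these arrays, at the 18.1 to 45.0 percentile of signals. In HP it read 164.3, 145.0 and 149.7 after sham and 77.9, 92.2 and 78.1 after SNL. The LP sham arrays read 205.2, 143.4 and 260.3, against 111.8, 116.3 and 100.7 on the ligated ones. It moved with the intact-nociceptor peptides: Crh fell 1.84-fold in HP (-0.88 ± 0.19, adjusted p = 0.0121) and 1.79-fold in LP (-0.84 ± 0.19, adjusted p = 0.0128), with no overlap of sham and ligated arrays in either line. The LP call was lost without LP SNL replicate 3 (-0.78, adjusted p = 0.0521) and with the 6 LP arrays alone (0.0801), and the HP call with the actin ratio as a covariate (0.0611).

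Over the 10 members, the ligated and sham arrays did not overlap for 9 in HP and for all 10 in LP. Over all genes, 17.2% were higher and 17.1% lower with no overlap in HP, and 16.5% higher and 14.7% lower in LP.

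**Figure D2:**
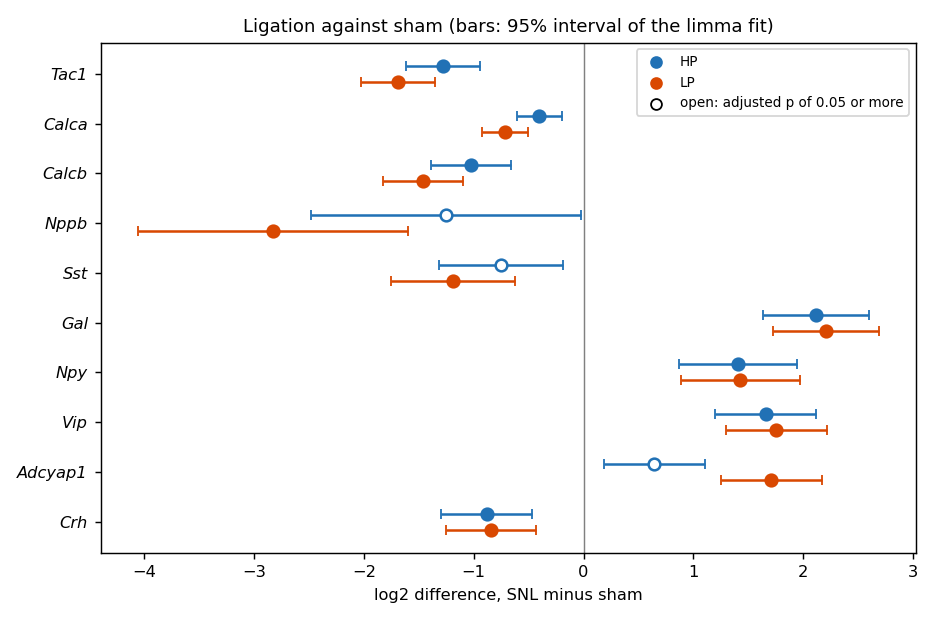
Log2 difference between SNL and sham for the 10 neuropeptide genes in the HP and LP lines, with bars for the 95% interval of the limma fit and open points for an adjusted p of 0.05 or more. The open points are Nppb, Sst and Adcyap1 in HP, and the intervals of the 2 lines overlap for all members except Adcyap1.

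Marker genes of the neurons and of other cells moved with ligation too, and their part in the peptide differences was not tested. The marker counts here and below stand beside 7.02% of all genes called higher and 6.61% lower in HP, and 7.66% and 6.79% in LP. Of 13 measured nociceptor markers 6 fell in HP and 9 in LP, with a summed signal of 10942.5 to 11960.3 after sham and 7036.9 to 7205.3 after SNL in HP, and of 11687.2 to 12982.1 and 5800.5 to 5981.9 in LP. Examples are the sodium channel Scn10a (-1.30 ± 0.08 in HP and -1.86 ± 0.08 in LP) and, by its brightest probe set, the heat channel Trpv1 (-1.43 ± 0.17 in both). Tested as separate probe sets, a second Trpv1 probe set fell in HP (-2.54 ± 0.46, adjusted p = 0.00751) and in LP (-3.69 ± 0.46, adjusted p = 0.000891). The third Trpv1 probe set did not pass (-0.33 ± 0.22 in HP and -0.0022 ± 0.22 in LP, adjusted p = 0.42 and 0.998). Of 13 axon injury markers all rose in HP and 12 in LP, among them the injury transcription factor Atf3 (2.50 ± 0.22 and 2.85 ± 0.22). Of 12 general sensory neuron markers 4 fell in each line, and their summed signal was 61756.9 to 66357.4 (HP sham), 54867.9 to 59399.9 (HP SNL), 60654.9 to 65777.6 (LP sham) and 51211.6 to 56225.9 (LP SNL).

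Npy and Gal are also peptides of sympathetic neurons, whose fibres reach the ganglion. Of 10 genes listed as sympathetic markers 1 fell in each line, the nicotinic receptor subunit Chrna3 (-2.15 ± 0.25 in HP and -2.61 ± 0.25 in LP). None rose (1 did in LP without LP sham replicate 1), and 9 were not called in either line. The median difference of the 10 was -0.02 in HP and -0.12 in LP, so the fall of Chrna3 does not stand for the list. Which cells gave the Chrna3 signal was not tested. The summed signal of the 10 was 2504.0 to 2871.5 and 2209.4 to 2466.7 (HP sham and SNL) and 2724.6 to 3028.2 and 2235.9 to 2592.7 (LP sham and SNL). The noradrenaline enzymes and transporter were low on all 12 arrays: Th read 134.9 to 219.5, Dbh 14.6 to 135.1 and Slc6a2 18.1 to 111.8. Whether sympathetic fibres add to the Npy and Gal signals was not tested.

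Of 11 macrophage markers 7 rose in each line, with summed signals of 5898.4 to 6273.9 and 11153.5 to 13482.2 in HP and of 4714.6 to 5100.3 and 9473.0 to 10812.5 in LP (sham and SNL). Of 7 satellite glia and Schwann cell markers 2 rose in each line. The HP count was 1 without HP sham replicate 1 or 3 or HP SNL replicate 1 or 3, and 0 with the actin ratio as a covariate. The LP count was 1 without LP sham replicate 2 or 3, and 0 without LP sham replicate 1, LP SNL replicate 1 or LP SNL replicate 3. The median difference of the 7 was 0.12 in HP and -0.16 in LP, so the 2 risers do not stand for the list. Its member Fabp7 had -0.55 ± 0.19 in HP and -0.60 ± 0.19 in LP and did not pass (adjusted p = 0.0853 and 0.06). In LP 1 glial marker fell without HP sham replicate 3 or LP SNL replicate 2. Of 9 skeletal muscle markers 3 fell in HP (Acta1, Myh4 and Tnni2) and none in LP. The HP count was 0 without HP sham replicate 1 or 3, HP SNL replicate 2 or 3 or LP sham replicate 2, and 1 without HP SNL replicate 1 or LP SNL replicate 2, and the LP count was 1 without HP SNL replicate 1 or 2. In HP their summed signal was 5863.3 to 6426.3 after sham and 3810.1 to 4677.1 after SNL, and in LP it was 5265.7 to 5659.5 and 4187.5 to 4691.2. The median difference of this muscle list was -0.76 in HP but only -0.09 in LP, so the LP sum does not describe the typical gene. Its member Pvalb had -0.76 ± 0.25 in HP and -0.74 ± 0.25 in LP and did not pass (adjusted p = 0.0738 and 0.0748). Which cells gave the Pvalb signal was not tested, so its difference and its share of the sum need not be those of muscle. Of 7 spinal cord glia markers none was called in either line, although 1 was in LP without LP sham replicate 1 and 1 or more in both lines without HP sham replicate 2, and their summed signals were 654.9 to 1006.5, 672.6 to 947.1, 707.5 to 830.7 and 749.4 to 926.7 (HP sham, HP SNL, LP sham, LP SNL). Of 15 markers of T cells, mast cells and neutrophils 1 (the receptor gene Kit) fell in HP, 6.67% of the list, near the 6.61% of all genes. The count was 0 without HP sham replicate 1 or 3 or HP SNL replicate 1 or 3, and 2 without LP SNL replicate 3. Which cells gave the Kit signal was not tested. Mast cell genes listed beside Kit did not pass in HP: Cpa3 had 0.03 ± 0.16, Cma1 0.02 ± 0.27, Tpsab1 0.03 ± 0.12, Fcer1a 0.20 ± 0.16 and Ms4a2 -0.92 ± 0.50. In LP none was called, but 1 rose without HP sham replicate 2 and 1 fell without LP SNL replicate 3. The actin 3' to 5' ratio was 1.483 to 1.847 on the HP sham arrays and 1.118 to 1.342 on the HP SNL arrays, and 0.993 to 1.877 and 1.113 to 1.125 in LP. The HP ranges did not overlap, so in HP this ratio and ligation cannot be fully told apart, also where the ratio is a covariate.

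The lines were then compared, which addresses whether peptide levels differ between rats of high and low pain behaviour. No member differed between LP and HP after sham or after SNL in limma, at an adjusted p under 0.05. Over all genes 0.00961% (1 gene) were called after sham and 0.173% (18 genes) after SNL. At an unadjusted p under 0.05 the members were 1 after sham (Adcyap1), beside 9.76% of all genes, and 3 after SNL (Calca, Calcb and Adcyap1), beside 10.7%.

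After sham, the 2 lines did not overlap for 2 members, beside 15.6% of all genes. These were Calca, lower in LP (-0.16, adjusted p = 0.638), and Sst, higher in LP (0.34, adjusted p = 0.707). Adcyap1 was lower in LP by the mean, with 1 overlapping array (-0.54 ± 0.21, 95% interval -1.0 to -0.08, adjusted p = 0.441).

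After SNL, the lines did not overlap for 4 members, beside 17.4% of all genes. Calca was lower in LP (-0.47 ± 0.09, 95% interval -0.67 to -0.26, adjusted p = 0.0937), and its adjusted p was 0.0178 with trended and robust variance. Calcb was lower too (-0.44, adjusted p = 0.384), while Adcyap1 (0.53 ± 0.21, adjusted p = 0.401) and Crh (0.40, adjusted p = 0.481) were higher in LP. The estimates of all 5 intact-nociceptor peptides lay on the LP-lower side after SNL, and these genes share arrays. The nociceptor channel Scn10a was the 1 nociceptor marker called between the lines after SNL (-0.61, adjusted p = 0.0292, up to 0.167 over the alternatives). Gal, Npy and Vip were nearly level, with LP minus HP differences after SNL of -0.08 (95% interval -0.56 to 0.40), -0.06 (-0.60 to 0.48) and 0.11 (-0.35 to 0.57).

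**Figure D3:**
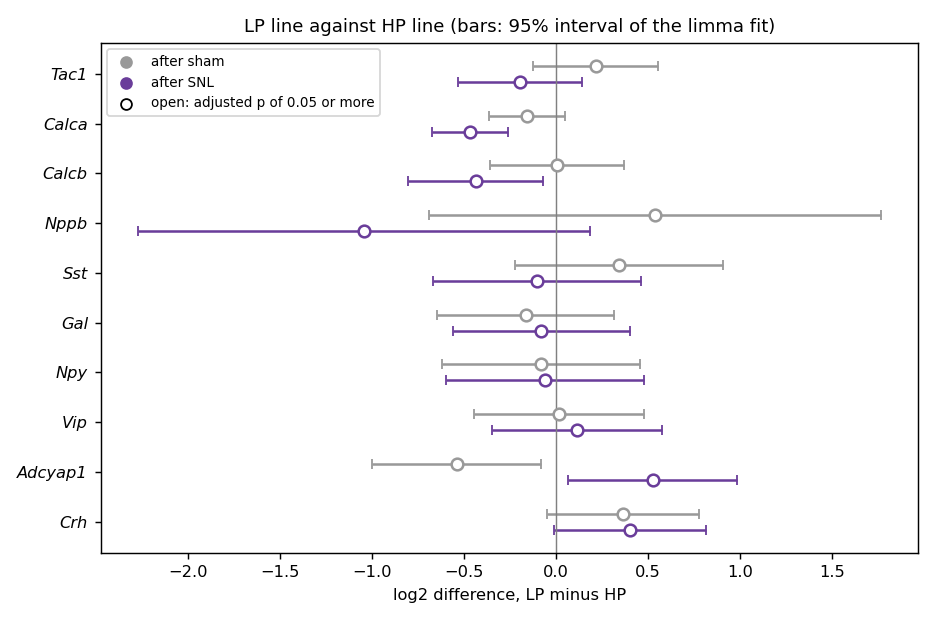
Log2 difference between LP and HP for the 10 neuropeptide genes after sham and after SNL, with bars for the 95% interval of the limma fit. All points are open (adjusted p of 0.05 or more), and Adcyap1 lies below 0 after sham and above 0 after SNL.

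Whether ligation acted differently in the 2 lines was tested by the interaction, the LP difference minus the HP difference. In limma 0% of genes were called, none of them a member, and at an unadjusted p under 0.05 there were 490 genes (4.71%), 2 of them members (Adcyap1 and Calca). Adcyap1 had the interaction 1.07 ± 0.29 (adjusted p = 0.988, 0.471 to 1.0 over the alternatives), and all 3 ligated LP arrays lay above all 3 ligated HP arrays. Calca had -0.31 ± 0.13. The other intact-nociceptor peptides had interactions of -0.41 for Tac1, -0.44 for Calcb, -1.58 ± 0.78 for Nppb (95% interval -3.32 to 0.16) and -0.44 for Sst, none with an unadjusted p under 0.05. Those of Gal (0.09), Npy (0.02), Vip (0.10) and Crh (0.04) were small. The interaction and the line comparisons use the same arrays as the ligation comparisons, so these values are not separate evidence.

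The genes whose pattern over the 12 arrays was most like that of Tac1 were sought by the root mean square of the log2 differences after each gene was centred on its own mean, where 0 is an identical pattern. They were Nrsn1 (0.16), Rgs4 (0.175), Acsl6 (0.186), Kcnd3 (0.205) and Tspyl4 (0.209). Among the members Calcb came closest to Tac1, at rank 13 (0.227), followed by Sst at rank 100 (0.381), Crh at rank 216 (0.458), Calca at rank 313 (0.503) and Nppb at rank 2980 (0.745). Nrsn1, a neuronal vesicle protein gene, had ligation differences of -1.39 in HP and -1.67 in LP.

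For Gal the nearest patterns were those of Gadd45a (0.195), Csrp3 (0.211), Col18a1 (0.258), Arg1 (0.285) and Vip (0.297), so that another member was at rank 5. Npy was at rank 39 (0.48) and Adcyap1 at rank 85 (0.605). Gadd45a, a stress-response gene, rose by 2.04 in HP and 2.34 in LP on the log2 scale, and the muscle LIM protein gene Csrp3 by 2.57 and 2.23, both known in injured sensory neurons.

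Genes that receive, cut, store and degrade the peptides were taken from lists. Of 25 measured receptor and receptor-partner genes 1 rose in each line and none fell. That is 4.0% of the list, below the 7.02% of all genes called higher in HP and the 7.66% in LP. The median difference was 0.05 in HP and -0.02 in LP. Of the 25 genes, 9 read below the 25th percentile on all arrays. The riser was Ramp1, the partner protein that turns the calcitonin receptor-like receptor into a receptor for calcitonin gene-related peptide. It read 413.4, 489.2 and 423.3 after sham and 834.9, 895.5 and 887.4 after SNL in HP, and 470.9, 404.4 and 423.7 and then 688.9, 751.5 and 879.4 in LP, with a wide gap between sham and ligated arrays. Ramp1 rose by 0.98 ± 0.11 in HP (adjusted p = 0.000626) and by 0.83 ± 0.11 in LP (adjusted p = 0.00118), while Calcrl, that receptor, had -0.31 ± 0.21 and 0.21 ± 0.21 and did not pass (adjusted p = 0.408 and 0.589). Npr1, the natriuretic peptide receptor, had 0.42 ± 0.13 in HP (adjusted p = 0.0555). It passed without HP SNL replicate 1 (0.0478), LP sham replicate 2 (0.0446) or LP SNL replicate 2 (0.0487). The somatostatin receptor Sstr4 had -0.53 ± 0.16 in LP (adjusted p = 0.058), and reached 0.0319 without LP sham replicate 2, 0.05 without HP SNL replicate 3 and 0.034 with quantile normalization. In HP 1 receptor gene fell without HP SNL replicate 1 or 2.

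The secretory granule list had 14 measured genes, of which 2 rose and 5 fell in HP and 2 rose and 6 fell in LP, with median differences of -0.21 and -0.45. Over all genes 7.02% were called higher and 6.61% lower in HP, and 7.66% and 6.79% in LP. Scg2, a granin of dense-core granules and itself a peptide precursor, read 2046.0, 2067.5 and 1967.0 after sham and 971.5, 690.9 and 605.7 after SNL in HP. Its LP arrays read 1856.7, 1975.3 and 2050.5, then 545.8, 470.4 and 560.4, and it fell by 1.45 ± 0.16 and 1.90 ± 0.16 on the log2 scale (adjusted p = 0.000435 and 8.7e-05). Rab3a, a GTPase of vesicle release, fell by 1.05 ± 0.09 and 1.10 ± 0.09, and Cadps, which primes dense-core granules for release, by 0.60 ± 0.09 and 0.76 ± 0.09.

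Vgf, a granule protein cut into several peptides and known to be raised by nerve growth factor and injury, went the other way. It read 1027.0, 640.5 and 820.0 after sham and 2089.4, 2229.0 and 2048.0 after SNL in HP, and 754.8, 712.6 and 650.9, then 2068.6, 1517.4 and 1812.1 in LP. All ligated arrays were above all sham arrays, and Vgf rose by 1.38 ± 0.17 in HP (adjusted p = 0.000797) and 1.34 ± 0.17 in LP (adjusted p = 0.000734). The other riser in both lines was Syt4, a synaptotagmin (0.63 ± 0.09 and 0.55 ± 0.09). With the actin ratio as a covariate, the count of granule genes that fell in HP was 3.

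Of 14 measured peptide-processing genes 1 rose and 1 fell in HP and 3 fell in LP, with medians of -0.10 in both, beside 7.02% of all genes higher and 6.61% lower in HP and 6.79% lower in LP. Pcsk2, a convertase that cuts precursors inside the granule, read 239.0, 239.5 and 230.6 after sham and 163.5, 53.3 and 48.5 after SNL in HP, and 191.1, 257.5 and 244.1, then 51.9, 91.4 and 110.7 in LP. The ligated arrays were lower in both lines, by -1.64 ± 0.42 (adjusted p = 0.029) and -1.49 ± 0.42 (adjusted p = 0.0393), but the call was lost under 8 alternatives in HP and 11 in LP (adjusted p up to 0.101 and 0.136). Its helper Scg5 (-0.44 ± 0.11, adjusted p = 0.0227) and the inhibitor Pcsk1n (-0.40 ± 0.10, adjusted p = 0.0223) fell in LP. Without LP sham replicate 2, LP SNL replicate 2 or LP SNL replicate 3 the number that fell in LP was 0, and without LP sham replicate 1 or 3 it was 1. The number that fell in HP was 0 without any 1 HP sham replicate or HP SNL replicate 3, and 2 without LP sham replicate 3. Without LP sham replicate 2 the number that rose was 2 in HP and 1 in LP. Pcsk5, another convertase, rose in HP (1.13 ± 0.26, adjusted p = 0.018) by its brightest probe set, while its other 2 had -0.26 and 0.51. The call was lost without HP sham replicate 3 (0.0638), HP SNL replicate 1 (0.0592) or HP SNL replicate 3 (0.0635). The enzymes that trim and amidate the cut peptides, Cpe (-0.14 ± 0.09 and -0.18 ± 0.09) and Pam (-0.0028 ± 0.13 and 0.08 ± 0.13), did not pass in either line.

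Of 13 measured peptide-degrading genes 1 rose in HP and 2 in LP, and none fell. The HP count is 7.69% of the list, near the 7.02% of all genes called higher, and the LP count is 15.4%, against 7.66%. The endothelin-converting enzyme Ece1, which also degrades other peptides, read 1135.3, 1022.6 and 970.3 after sham and 1563.7, 1462.3 and 1410.1 after SNL in HP, with no overlap (0.51 ± 0.09, adjusted p = 0.0058). In LP it had 0.33 ± 0.09 (adjusted p = 0.0359, a call lost under 8 alternatives), and the aminopeptidase Anpep had 0.53 ± 0.15 (adjusted p = 0.0441, lost under 14). In HP Anpep had 0.51 ± 0.15 (adjusted p = 0.0555) and passed under 2 alternatives. The LP count was 0 without HP sham replicate 2, any 1 LP sham replicate, LP SNL replicate 1 or LP SNL replicate 3, and 1 without HP sham replicate 1 or 3 or HP SNL replicate 1 or 2. The HP count was 2 without HP sham replicate 1. Neprilysin (Mme), the main protease of substance P, had 0.16 ± 0.18 in HP and 0.03 ± 0.18 in LP and did not pass (adjusted p = 0.642 and 0.945).

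Among 37 other measured neuropeptide precursors, 16 of which read below the 25th percentile on all arrays, 3 rose and 1 fell in HP and 2 rose in LP, with medians of 0.04 and 0.01. These counts are near the share of all genes called higher (7.02% in HP and 7.66% in LP) and lower (6.61% in HP). The clearest was Ucn, urocortin, a relative of Crh that acts on the same receptors. It read 173.5, 148.2 and 208.2 after sham and 336.7, 340.3 and 310.4 after SNL in HP, and 182.4, 134.4 and 133.4, then 252.4, 303.5 and 223.7 in LP, so it was higher after ligation in both lines while Crh was lower. Ucn rose by 0.91 ± 0.17 in HP (adjusted p = 0.00659) and 0.79 ± 0.17 in LP (adjusted p = 0.0108, and 0.0555 with the 6 LP arrays alone). Ucn2 (1.66 ± 0.43 and 1.85 ± 0.43, adjusted p = 0.0301 and 0.0171) read only 4.7 to 57.7, Pomc (0.48 ± 0.12 in HP, adjusted p = 0.0243) 14.4 to 25.7 and Npw (-0.70 ± 0.11 in HP, adjusted p = 0.00274) 6.8 to 14.1, among the dimmest signals of the arrays. The call of Ucn2 was lost under 6 alternatives in HP (adjusted p up to 0.104) and 3 in LP (up to 0.0716), that of Pomc under 11 (up to 0.354) and that of Npw under 3 (up to 0.16). The Ucn2 call was lost in HP without any 1 HP sham replicate, HP SNL replicate 1 or HP SNL replicate 3, and in LP without LP SNL replicate 2 or 3. The Pomc call was lost without HP sham replicate 1 or 2 or HP SNL replicate 2 or 3. Without HP sham replicate 1, HP sham replicate 2 or HP SNL replicate 3 the number that rose in HP was 1, and without LP SNL replicate 2 or LP SNL replicate 3 the number in LP was 1. The number that fell in HP was 2 without HP SNL replicate 1, and in LP it was 1 without HP SNL replicate 2 or LP sham replicate 2 and 2 without HP SNL replicate 3.

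**Figure D4:**
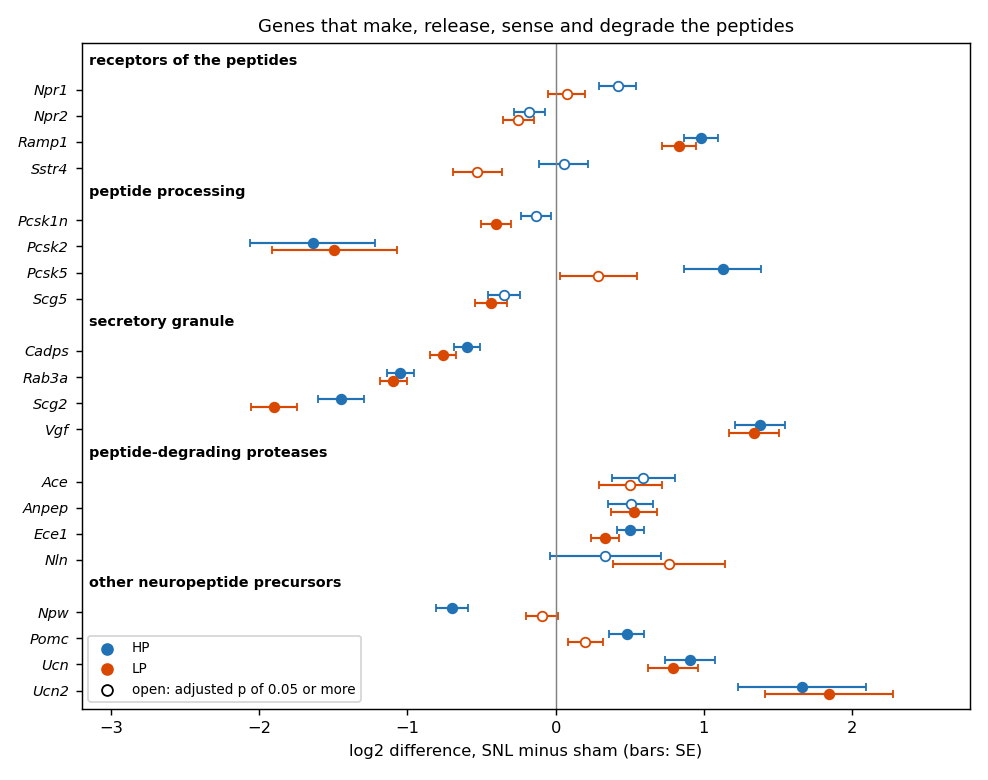
Log2 difference between SNL and sham in HP and LP for 4 genes of each list on peptide receptors, processing, granules, degradation and other precursors, with bars for the standard error and open points for an adjusted p of 0.05 or more. Scg2, Rab3a and Cadps lie below 0 and Vgf, Ramp1 and Ucn above 0 in both lines.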

How the data were processed

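The authors deposited a table of linear intensity values, 1 for each probe set on each array. RMA is the sole tool in the submitters' processing notes, without a version, but every array has a mean of 500.1 once its lowest and highest 2% of values are left out, so the steps the authors ran are unsettled. Median signals were 278.4 to 313.2, and arrays of a group correlated at 0.941 to 0.965. No arrays were identical.

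Signals were used as log2(signal + 1). Symbols came from the platform annotation, updated through RefSeq, and a gene's brightest probe set by mean signal stood for it. All 12 arrays entered 1 limma 3.58.1 fit of 4 group means (R 4.3.3, two-sided, 8 residual degrees of freedom), checked on simulated data. The alternatives were other pseudocounts, quantile normalization, other probe set rules and variance settings, a filter on dim genes, an actin covariate, a replicate block, only the arrays compared, and each replicate left out in turn. The 10 members and the lists were chosen with earlier results of these data known. Up to 4 genes of each list, those with the smallest p in either ligation comparison, were named by rule, while Calcrl, Mme, Cpe, Pam, Syt4 and marker genes beside a result were added after their values were seen. The number of arrays limits the precision.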

Additional observations from a re-analysis of the deposited data

How the results depend on the processing

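Over 22 alternatives no member's ligation difference changed sign in HP or LP, and the values that crossed the threshold stand beside the results. With each replicate left out in turn, 2 to 4 intact-nociceptor peptides fell in HP and 5 to 5 in LP, and 3 to 4 injury peptides rose in HP and 4 to 4 in LP. The number of members called between LP and HP after SNL was 1 (Calca) instead of 0 with trended and robust variance. Crh was not tested without the dimmest 25% of genes, since that filter removed it. With the actin ratio as a covariate 816 genes were called in HP instead of 1419, 1433 instead of 1504 in LP, 3 instead of 1 between the lines after sham, 9 instead of 18 after SNL and 1 instead of 0 in the interaction. With the replicate number as a block 1115 genes were called in HP, 1251 in LP, 0 and 7 between the lines after sham and SNL and 0 in the interaction, and the counts of members did not change. Same-numbered arrays of different groups had deviations correlated at -0.158 to 0.098, against -0.152 to 0.213 for other pairs. With 3 arrays per group, these values do not settle whether same-numbered arrays were handled together. Of the members Nppb had the largest standard error.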
